A study of Mus musculus with 30 samples.

Results

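Integrins are receptors that hold a cell to the matrix around it, and laminins and fibronectin are matrix proteins that they bind. All genes of the mouse integrin alpha subunits named by a number, with Itgav, all integrin beta subunits named by a number, the laminin alpha, beta and gamma chains, and Fn1 were taken by gene symbol alone. This gave 33 of the 48440 genes counted: 13 integrin alpha subunits, 8 integrin beta subunits, 11 laminin chains and fibronectin. RNA was sequenced from 30 subcutaneous tumors of 5 fibrosarcoma cell lines, each started from 1 tumor that the carcinogen methylcholanthrene (MCA) had induced, and hematopoietic cells were depleted with CD45 beads before extraction. MCA-943 (4 tumors) and MCA-969 (8 tumors) are the lines that the study classed as non-sensitive to NK1.1+ cells. MCA-948 (8 tumors), MCA-970 (6 tumors) and MCA-972 (4 tumors) are those it classed as sensitive. The class came from depletion with an anti-NK1.1 antibody, which targets NKT cells beside NK cells and ILC1. The strain label was Ncr1Cre for MCA-943 and Ncr1Cre R26DTA for the other 4 lines, a pair of alleles in which Cre from the Ncr1 locus, active in NKp46+ cells, turns on diphtheria toxin A. The labels do not say whether the strain is that of the host or of the mouse in which the line arose. In the paper, lines were derived from MCA-induced tumors of mice of these genotypes and transplanted into C57BL/6 mice. MCA-943 is the only line with its strain label, so line and strain label cannot be told apart in its comparisons. The labels name C57BL/6 mice for growth and give no dose, time or age. The letters W and a in the tumor codes are not explained, so that they were not read as a condition. Each line is a single tumor's cells, so a difference between lines is a difference between 5 tumors of origin, and the p-values cover only the spread among the tumors grown from each.

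An integrin on the cell surface is a pair of 1 alpha and 1 beta subunit, and the pair sets the ligand. Itgb1 is the shared beta subunit of the receptors for collagen (with Itga1, Itga2, Itga10 or Itga11) and for laminin (with Itga3, Itga6 or Itga7), while Itga5, Itga8, Itgav and Itga2b take part in receptors of the RGD motif found in fibronectin and vitronectin. Itgb2 and Itgb7 pair with alpha subunits of leukocytes, Itgb7 with Itga4 or Itgae. A laminin is a trimer of an alpha, a beta and a gamma chain secreted into basement membranes, and the alpha chain carries the main binding sites for integrins. CD49a and CD49b, by which ILC1 and NK cells were told apart in the study, are the products of Itga1 and Itga2.

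The total count per tumor ran from 27745104 to 46537062, with a median of 35039383, and the members took 0.712% to 2.59% of it. Levels are given as CPM, the count scaled to the effective library size, and as RPKM, CPM per kilobase of summed exon length, where genes are set beside each other. A gene was called different between lines at a Benjamini-Hochberg adjusted p under 0.05 over all 16862 genes tested and a log2 fold change of 1 or more in size in edgeR's quasi-likelihood test. Fibroblast markers (10 genes, among them Col1a1, Pdgfra and Vim) summed to at least 10117 CPM in every tumor. Leukocyte RNA was not gone after the depletion: 18 leukocyte markers summed to 41.2 to 191 CPM in MCA-943, 15.3 to 67.6 in MCA-969, 28.4 to 143 in MCA-948, 27.6 to 346 in MCA-970 and 30.3 to 81.3 in MCA-972. By this sum they were highest in MCA-970 W-1D and W-R and in MCA-943 W-2G and a-1D. The 11 endothelial markers summed to 80.2 to 160 CPM in MCA-943, 78.9 to 264 in MCA-969 and 26.2 to 466 in MCA-948. Their sums were highest in MCA-970, at 277 to 585 CPM, and 57.8 to 153 CPM in MCA-972. In bulk RNA, fewer cells of a type and less RNA per cell cannot be told apart. MCA-969 W-2D and W-1D carry a sensitivity label opposite to that of their line, and W-2D stood apart from the other MCA-969 tumors in several members.

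Promoter windows in the RefSeq table (GRCm38.p6) were matched for 21 of the 33 members. Those of Itga11 and Itgb7, among the members that differed most between lines, are shown beside that of Itgb1, which was never called. Each sequence is the 250 bases before the start site, on the gene's strand, and capitals mark matches on either strand to the GC box (GGGCGG), to the core of the TATA box (TATAAA) or to an E-box (CAGGTG). No match overlaps another in the windows shown. Itga11 lies at chr9:62677605-62677854 (plus strand), Itgb7 at chr15:102231936-102232185 (minus strand) and Itgb1 at chr8:128685404-128685653 (plus strand).
Itga11: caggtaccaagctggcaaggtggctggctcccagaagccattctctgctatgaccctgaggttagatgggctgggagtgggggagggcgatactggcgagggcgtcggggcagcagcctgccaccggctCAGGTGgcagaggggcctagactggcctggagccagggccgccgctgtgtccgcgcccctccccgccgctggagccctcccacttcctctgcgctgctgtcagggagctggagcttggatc
Itgb7: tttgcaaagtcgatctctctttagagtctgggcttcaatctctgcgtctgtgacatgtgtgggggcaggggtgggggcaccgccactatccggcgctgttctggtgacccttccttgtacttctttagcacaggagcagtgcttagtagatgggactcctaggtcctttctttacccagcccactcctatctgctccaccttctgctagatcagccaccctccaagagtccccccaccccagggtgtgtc
Itgb1: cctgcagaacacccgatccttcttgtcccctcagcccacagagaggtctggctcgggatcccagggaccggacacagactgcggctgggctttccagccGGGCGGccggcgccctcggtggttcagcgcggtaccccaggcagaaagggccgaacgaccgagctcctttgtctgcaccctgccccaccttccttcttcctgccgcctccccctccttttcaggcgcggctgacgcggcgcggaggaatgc
The Itga11 window held 12 CpG dinucleotides and 1 E-box, the Itgb7 window 5 CpG and no match, and the Itgb1 window 21 CpG and 1 GC box. Over all 32851 promoter windows, 32.7% held GGGCGG, 12.4% TATAAA and 17.2% CAGGTG, and the median CpG count was 6. Among the 24 windows of members, 8 held GGGCGG, 8 CAGGTG and 0 TATAAA, with a median of 10.5 CpG. The letters describe these windows only.

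Of the 33 members, 32 passed the filter on low counts; Lamb3, a beta chain of epithelial basement membranes, did not, with at most 12 counts in any tumor. Of the 32 tested, 28 (87.5%) were called in at least 1 of the 10 comparisons of lines, against 59.0% of all genes tested. A member was called in a median of 4.5 comparisons and a gene in a median of 1. The median difference between the highest and the lowest line mean was 2.21 on the log2 scale over the members tested and 1.15 over all genes tested. The filter favours genes that are high in some line, so these figures are a description of the members tested.

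By comparison, the members called were 14 in MCA-943 against MCA-969 (27.0% of all genes called), 17 in MCA-943 against MCA-948 (29.0%), 12 in MCA-943 against MCA-970 (27.3%) and 11 in MCA-943 against MCA-972 (25.6%). They were 14 in MCA-969 against MCA-948 (20.8%), 17 in MCA-969 against MCA-970 (21.4%) and 17 in MCA-969 against MCA-972 (20.6%). Among the sensitive lines they were 16 in MCA-948 against MCA-970 (29.4%), 16 in MCA-948 against MCA-972 (26.8%) and 10 in MCA-970 against MCA-972 (17.6%). The members' own share lay between 31.2% and 53.1%, above that of all genes in each of the 10. All 14 members called in MCA-969 against MCA-948 were higher in MCA-969, whereas the other comparisons had calls in both directions. The directions of all genes called are not given here. Between tumors of this pair in the same run of library numbers, 2 members were called (0.648% of all genes). These were 2 tumors a line, MCA-969 W-1D and W-2D and MCA-948 a-2G and a-R.

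**Figure D1:**
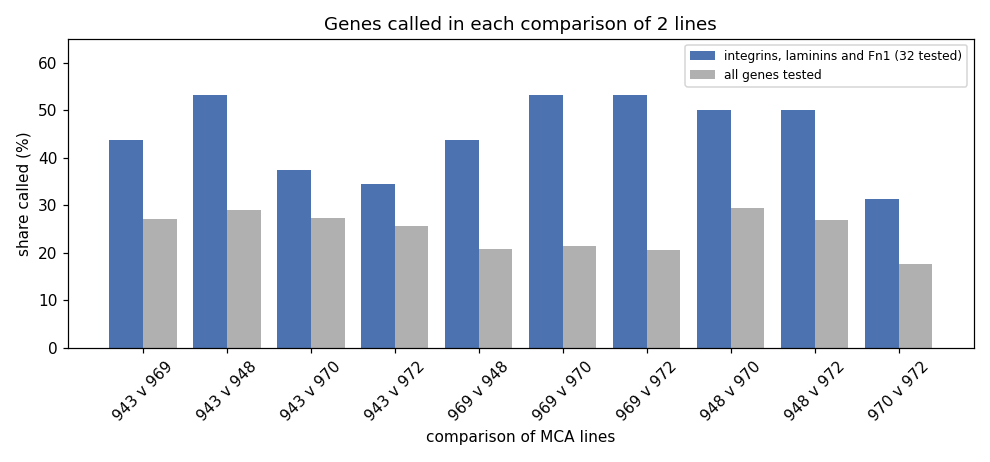
Share of the 32 integrin, laminin and Fn1 genes tested (blue) and of all genes tested (grey) called in each of the 10 comparisons of lines, in percent. The blue bars stand between 31.2% and 53.1%, the grey bars between 17.6% and 29.4%.

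**Figure D2:**
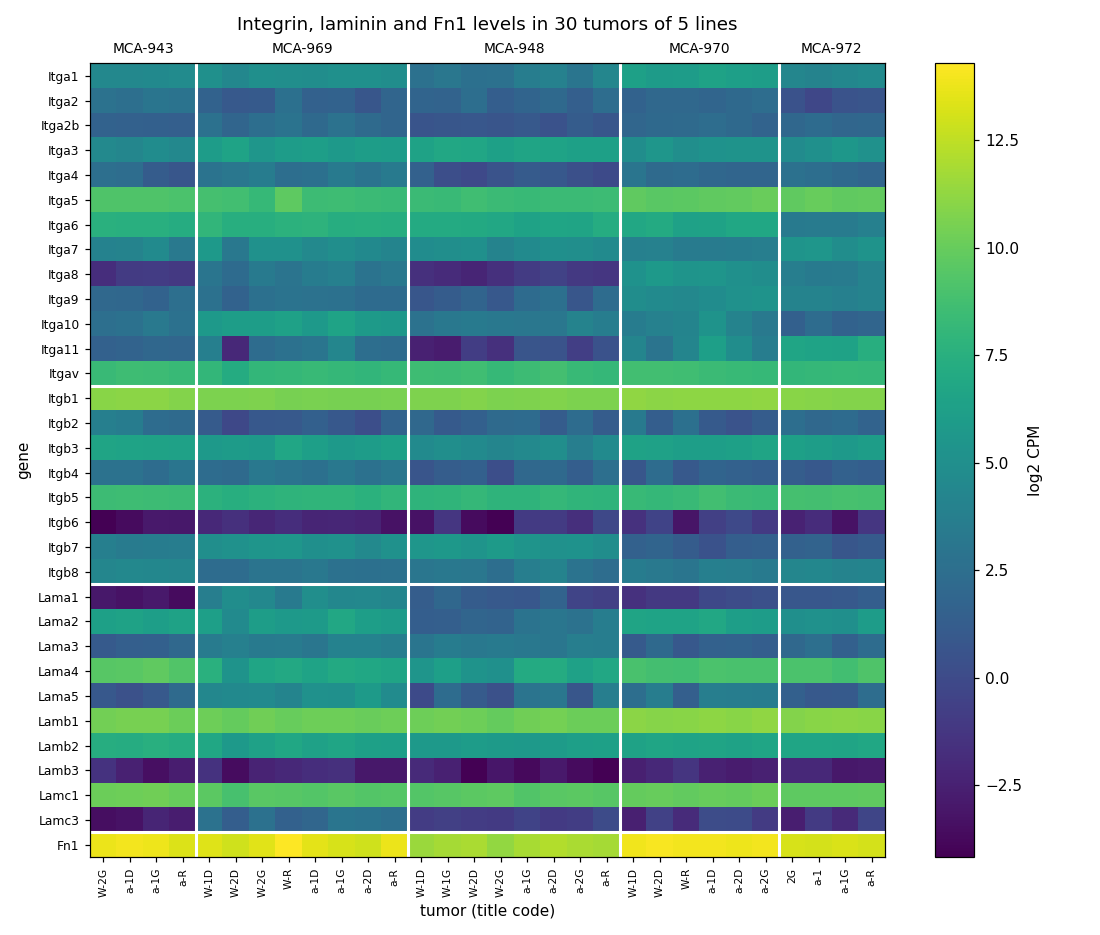
Level of 32 of the 33 members in each of the 30 tumors, as log2 CPM (colour), with tumors grouped by line along the horizontal axis. Itgb1, Lamb1, Lamc1 and Fn1 are bright in every tumor, and Itga8, Itga11, Lama1 and Lamc3 change between blocks of tumors.

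The subunits and chains that most of these receptors and laminins share were high in all lines, with differences under the fold threshold. Itgb1, Itgav, Lamb1 and Lamc1 were called in 0 of the 10 comparisons. Itgb1 read 1829, 2030, 2117 and 2130 CPM in MCA-943 and 1869, 1894, 1954 and 2017 CPM in MCA-972. Its lowest, median and highest values were 1436, 1550 and 1646 CPM in MCA-969, 1573, 1677 and 1821 in MCA-948, and 2166, 2318 and 2411 in MCA-970. No MCA-970 tumor overlapped with another line, but the widest gap, between MCA-970 and MCA-969, was 1.502-fold (SE 0.05 on the log2 scale, adjusted p = 1.5e-10), under the fold threshold. Itgb1 made up 75.8% to 82.9% of the summed RPKM of the 8 beta subunits in the line means. Itgav, which pairs with several beta subunits and binds vitronectin, read 301, 324, 359 and 383 CPM in MCA-943 and 266, 273, 279.5 and 286 in MCA-972. It ran from 147 CPM (median 272, highest 304) in MCA-969, from 272 (median 364, highest 446) in MCA-948 and from 291 (median 368, highest 425) in MCA-970. The lines differed by at most 1.39-fold (MCA-970 over MCA-969, adjusted p = 0.0013), and the lowest value was that of MCA-969 W-2D. For Lamb1 and Lamc1, the chains of most laminins outside epithelia, the highest line mean was 2146 and 1159 CPM and the lowest 1129 and 689.8 CPM. The widest gaps were 1.90-fold for Lamb1 (MCA-970 over MCA-969, adjusted p = 1.0e-11) and 1.68-fold for Lamc1 (MCA-943 over MCA-969, adjusted p = 7.4e-08). The lowest Lamb1 values of MCA-970 and MCA-972 (1989 and 1902 CPM) were above the highest of the other lines (1468 CPM, in MCA-943).

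Each collagen-binding alpha subunit had its own order of lines. Itga11, a collagen receptor subunit of fibroblasts, was highest in MCA-972 and lowest in MCA-948. It read 86.0, 93.6, 103 and 171 CPM in MCA-972 and 2.88, 3.16, 3.67 and 3.89 CPM in MCA-943. Its lowest, median and highest values were 7.43, 18.6 and 75.8 CPM in MCA-970, 0.186, 5.99 and 19.3 in MCA-969, and 0.0917, 0.527 and 1.55 in MCA-948. Every MCA-972 tumor was above every other tumor, and the MCA-948 tumors were below all the rest except MCA-969 W-2D, which alone gave the value of 0.186 CPM. The level was 152-fold higher in MCA-972 than in MCA-948 (SE 0.67 on the log2 scale, adjusted p = 2.2e-10) and 4.2001-fold higher than in MCA-970 (SE 0.60, adjusted p = 0.0052). It was called in 9 of the 10 comparisons, with MCA-943 against MCA-969 the exception (2.34-fold, adjusted p = 0.10). Without MCA-970 a-1D, the call between MCA-969 and MCA-970 was lost (adjusted p = 0.051). Within the same run of library numbers, 2 calls were lost and their directions kept. The 2 MCA-969 tumors there were W-1D (13.95 CPM) and W-2D (0.186 CPM), so run and single tumors cannot be told apart. MCA-969 against MCA-970 gave -1.90 on the log2 scale (adjusted p = 0.24) and MCA-969 against MCA-948 gave 2.94 (adjusted p = 0.44).

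Itga10, another collagen-binding subunit best known from cartilage, was highest in MCA-969. There it ran from 50.3 CPM through a median of 63.99 to 94.5 CPM. The other lines gave 5.73, 6.44, 6.61 and 9.94 CPM in MCA-943, 2.76, 3.06, 3.45 and 4.94 in MCA-972, 6.89 to 17.3 (median 9.19) in MCA-948 and 9.82 to 39.1 (median 15.96) in MCA-970. No tumor of another line reached the lowest MCA-969 tumor, and MCA-970 a-1D, at 39.1 CPM, came nearest. The excess over MCA-970 was 3.60-fold (SE 0.25, adjusted p = 3.2e-07) and that over MCA-972 18.7-fold (SE 0.34, adjusted p = 3.7e-11). The call of MCA-943 over MCA-972, 2.02-fold with an adjusted p of 0.011, sat on the fold threshold and was lost with DESeq2 (0.97 on the log2 scale).

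Itga1, the subunit CD49a, was highest in MCA-970. It read 61.0 to 86.7 CPM there (median 72.7), 20.1 to 34.7 (median 31.9) in MCA-969 and 6.13 to 19.8 (median 8.24) in MCA-948. MCA-943 gave 21.5, 21.9, 24.3 and 26.9 CPM and MCA-972 17.2, 19.1, 20.5 and 25.2 CPM. The MCA-970 tumors did not overlap with any other line, and the fold over MCA-948 was 7.04 (SE 0.20, adjusted p = 9.3e-13). The gene Pelo lies within Itga1 on the same strand, so some reads could be shared. Itga2, the subunit CD49b, ordered the lines differently: 5.75, 6.85, 7.35 and 8.13 CPM in MCA-943 against 0.792, 1.30, 1.39 and 1.56 CPM in MCA-972. Its ranges were 1.63 to 6.15 CPM (median 2.97) in MCA-969, 2.54 to 5.64 (median 3.32) in MCA-948 and 3.05 to 5.40 (median 4.12) in MCA-970. MCA-972 was below every other tumor, and MCA-943 exceeded it 5.54-fold (SE 0.33, adjusted p = 2.2e-07). Neither gene separated the non-sensitive from the sensitive lines. With the leukocyte score, the mean log2 CPM of the leukocyte markers, as a covariate, all calls of both genes remained. The endothelial markers, whose highest sums were in MCA-970 tumors, are set beside Itga1 further below.

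**Figure D3:**
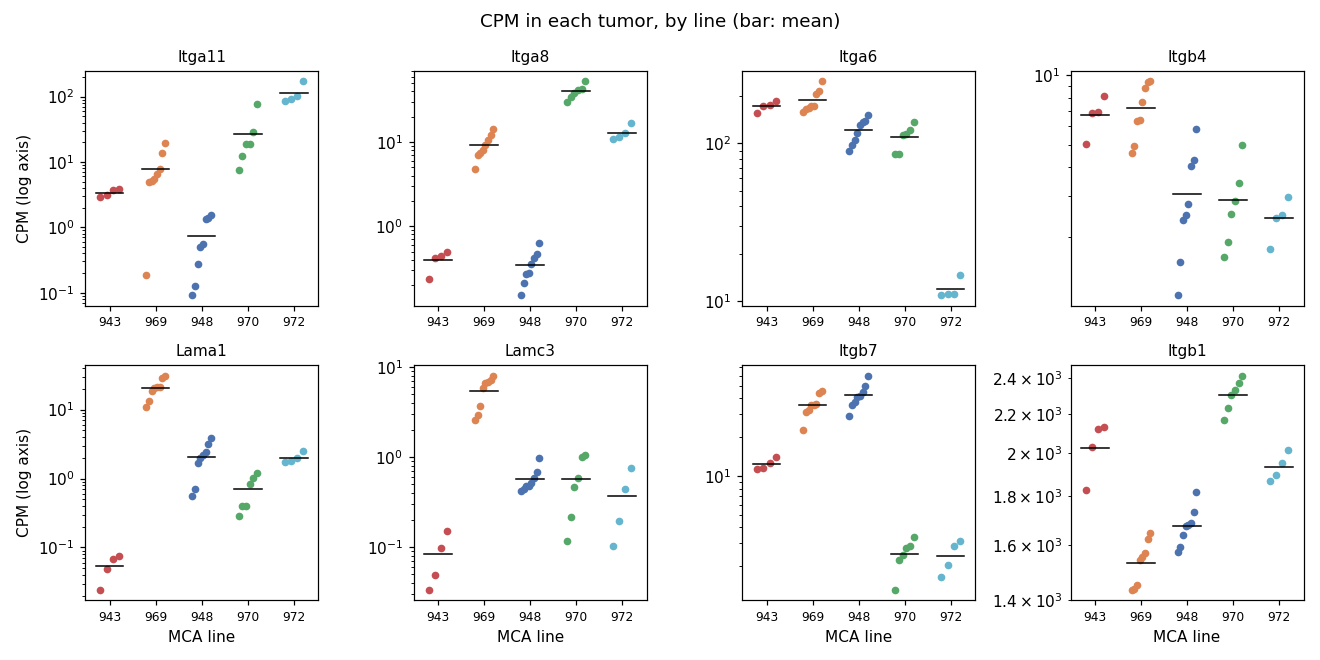
CPM (log axis) of 8 members in each tumor (points) by line (horizontal axis), with the mean of the line as a bar. Itga11 spans 0.0917 to 171 CPM, MCA-972 alone is low for Itga6, and MCA-969 stands apart for Lama1 and Lamc3.

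Among laminin-binding subunits, Itga6 was low in a single line. It read 10.9, 11.1, 11.1 and 14.7 CPM in MCA-972 and 155, 173, 175 and 184 CPM in MCA-943. In the other lines it ran from 158 to 247 CPM (median 172) in MCA-969, from 89.0 to 152 (median 124) in MCA-948 and from 85.4 to 136 (median 114) in MCA-970. The highest MCA-972 tumor was below the lowest of all others, and the 4 comparisons with MCA-972 were the only calls, from 9.15-fold under MCA-970 (SE 0.17, adjusted p = 8.4e-15) to 15.7-fold under MCA-969 (SE 0.17, adjusted p = 8.8e-17). Itga3, a laminin receptor subunit of epithelia and mesenchyme, was highest in MCA-948 (mean 92.9 CPM) and lowest in MCA-943 (22.9 CPM), a 4.07-fold difference (SE 0.17, adjusted p = 2.2e-11). Itga7, the laminin receptor subunit of muscle, was lowest in MCA-970 (mean 12.9 CPM) and called there against MCA-969, MCA-948 and MCA-972 (2.16 to 2.998-fold). Itga3 and Itga7 were each called in 4 comparisons.

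Itgb4, which pairs with Itga6 in hemidesmosomes, was the only member higher in both non-sensitive lines in all 6 comparisons with the sensitive lines. This pattern was held by 0.652% of all genes tested. Itgb4 is also in the paper's own list of genes upregulated in non-sensitive tumors, which came from these same data. It read 5.03, 6.86, 6.95 and 8.13 CPM in MCA-943 and 1.77, 2.40, 2.48 and 2.96 CPM in MCA-972. It ran from 4.58 to 9.39 CPM (median 7.02) in MCA-969, from 1.12 to 5.86 (median 2.62) in MCA-948 and from 1.63 to 5.0045 (median 2.69) in MCA-970. The groups overlapped: MCA-948 a-R, at 5.86 CPM, was above the lowest tumors of both non-sensitive lines. The 6 folds lay between 2.21 (MCA-943 over MCA-948, adjusted p = 0.0016) and 2.98 (MCA-969 over MCA-972, adjusted p = 0.00025). Within the same run of library numbers, MCA-969 exceeded MCA-972 by 1.73 on the log2 scale (adjusted p = 8.5e-06) and MCA-943 exceeded MCA-948 by 1.29 (adjusted p = 0.0042). The difference between MCA-969 and MCA-948 within a run was 0.21 (2 tumors a line, adjusted p = 0.87) and that between MCA-969 and MCA-970 was 0.74 (adjusted p = 0.14), so the call in all 6 did not hold there. In both, the MCA-969 tumors were W-1D and W-2D, which carry the opposite sensitivity label. They had the lowest Itgb4 of their line (4.95 and 4.58 CPM). Run, label and single tumors cannot be told apart there. Itgb4 was also low in RPKM: its line means were at most 1.02, against 12.1 to 20.8 for Itga6 in the 4 lines other than MCA-972. Keratinocyte markers, cells in which hemidesmosomes are built, summed to at most 11.8 CPM in any tumor. In MCA-948, a-R also had the highest endothelial marker sum (466 CPM), and W-2G the lowest sum (26.2 CPM) and the lowest Itgb4 (1.12 CPM). In MCA-970, W-R and W-1D were lowest in both. In MCA-969, a-R had the lowest sum (78.9 CPM) but Itgb4 at 8.83 CPM. These sums were set beside Itgb4 after its values were seen, and the relation was not tested. No member was lower in both non-sensitive lines in all 6 comparisons (0.225% of all genes tested); with no fold threshold the count was also 0.

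Itga8, a receptor subunit of smooth muscle and mesenchymal cells that binds RGD ligands such as nephronectin, split the lines into 3 levels. MCA-970 ran from 29.96 to 52.6 CPM (median 40.0). MCA-972 read 10.8, 11.5, 12.98 and 16.6 CPM, and MCA-969 ran from 4.74 to 14.2 CPM (median 8.59). MCA-943 gave only 0.237, 0.416, 0.444 and 0.491 CPM and MCA-948 0.152 to 0.638 CPM (median 0.317). The highest tumor of these 2 lines was below the lowest of the other 3, and MCA-970 exceeded MCA-948 112-fold (SE 0.25, adjusted p = 5.9e-19). MCA-943 and MCA-948 were not told apart (1.13-fold, adjusted p = 0.67), nor were MCA-969 and MCA-972 (1.42-fold, adjusted p = 0.053). Its ligand gene Npnt, taken from the list of other integrin ligands, averaged 27.2 CPM in MCA-972, 22.004 in MCA-970, 17.2 in MCA-969, 14.1 in MCA-948 and 1.55 in MCA-943.

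Fibronectin was by far the most abundant member. Fn1 read 10264, 13470, 14306 and 15663 CPM in MCA-943 and 8903, 8976, 9212 and 9814 CPM in MCA-972. It ran from 14400 to 17615 CPM (median 16007) in MCA-970, from 7762 to 20027 (median 10920) in MCA-969 and from 2467 to 4606 (median 3647) in MCA-948. Every MCA-948 tumor was below every other tumor, by 2.58-fold against MCA-972 (SE 0.17, adjusted p = 6.1e-08) to 4.46-fold against MCA-970 (SE 0.16, adjusted p = 9.3e-13). These 4 were its only calls. Itga5, whose product with Itgb1 is the main fibronectin receptor, held the largest share of the summed RPKM of the 13 alpha subunits, 51.2% in MCA-948 and in MCA-969 and 66.1% to 73.9% in the other lines. Its line means ran from 343 CPM in MCA-948 to 924 CPM in MCA-972, and it was called higher in both MCA-970 and MCA-972 than in MCA-969 and MCA-948 (2.08 to 2.69-fold). Itgb3, a beta partner of Itgav, followed Fn1 in being called lower in MCA-948 than in each other line (2.83 to 3.73-fold). Itgb5, another partner of Itgav, was called once (MCA-972 over MCA-969, 2.09-fold), Itgb8 3 times and Itgb6, an epithelial partner, 3 times at no more than 28 counts in any tumor. Itga2b, the platelet subunit, was called in 3 comparisons, each time as lowest in MCA-948, at line means of 1.70 to 5.23 CPM. The platelet markers summed to at most 5.66 CPM in any tumor.

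Itga9, whose product binds tenascin C and other ligands, was highest in MCA-970, at 21.8 to 38.6 CPM (median 28.8). MCA-972 read 14.6, 16.5, 17.1 and 17.2 CPM and MCA-943 3.10, 3.82, 4.07 and 5.78 CPM. MCA-969 ran from 2.97 to 7.21 CPM (median 6.38) and MCA-948 from 1.64 to 6.03 (median 2.78). The tumors of MCA-970 and MCA-972 were thus all above those of the other 3 lines, 8.88-fold for MCA-970 over MCA-948 (SE 0.26, adjusted p = 1.3e-11) and 2.85-fold for MCA-972 over MCA-969 (SE 0.27, adjusted p = 3.3e-05). Tnc, the tenascin C gene, averaged 7774 CPM in MCA-970 and 5562 in MCA-972, against 624 to 2377 CPM in the other lines.

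Among the laminin alpha chains, Lama1 and Lama5 set MCA-969 apart. Lama1, the alpha chain of embryonic basement membranes, ran from 10.99 to 30.8 CPM (median 20.8) in MCA-969. It read 1.72, 1.77, 1.96 and 2.51 CPM in MCA-972 and ran from 0.557 to 3.85 (median 2.08) in MCA-948 and from 0.290 to 1.21 (median 0.621) in MCA-970. The MCA-943 tumors held 1 or 2 counts each, 7 in all, and read 0.0245, 0.0493, 0.0678 and 0.0756 CPM. No tumor of another line came near the lowest MCA-969 tumor. MCA-969 exceeded MCA-972 10.4-fold (SE 0.42, adjusted p = 1.0e-07) and MCA-948 9.97-fold (SE 0.31, adjusted p = 3.2e-10). Against MCA-943, the ratio of summed counts per summed library size was 406 (95% exact conditional interval 197 to 1011, counting error only). The call of MCA-948 over MCA-970 (2.94-fold) changed its sign to -0.12 on the log2 scale when tumors of the same run of library numbers were compared (2 MCA-948 tumors, adjusted p = 0.86).

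Lama5, the alpha chain of epithelial and endothelial basement membranes, was also highest in MCA-969, at 18.02 to 58.3 CPM (median 26.0). It read 1.26, 1.83, 1.89 and 4.48 CPM in MCA-943 and 1.88, 2.05, 2.76 and 5.26 CPM in MCA-972. It ran from 0.923 to 13.2 CPM (median 3.54) in MCA-948 and from 2.66 to 13.4 (median 12.1) in MCA-970. The lowest MCA-969 tumor was above all others, and the folds were 12.7 over MCA-943 (SE 0.65, adjusted p = 1.8e-05), 6.00 over MCA-948 (SE 0.45, adjusted p = 1.6e-05) and 3.14 over MCA-970 (SE 0.48, adjusted p = 0.0044). With the run of library numbers in the model, the calls against MCA-943, MCA-948 and MCA-970 were lost (adjusted p = 0.073, 0.19 and 0.14), and their directions were kept. Lama3, the alpha chain of hemidesmosomal laminin, was called higher in both MCA-969 and MCA-948 than in each of the other 3 lines (2.31 to 4.58-fold), and these 6 were its only calls.

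In the opposite direction, Lama4, the alpha chain of mesenchymal and vascular basement membranes, was low in MCA-969 and MCA-948. It read 622, 711, 754 and 871 CPM in MCA-943 and 425, 535, 541 and 582 CPM in MCA-972, and ran from 423 to 543 CPM (median 498) in MCA-970. MCA-969 ran from 39.8 to 187 CPM (median 109) and MCA-948 from 33.3 to 145 (median 81.1). The 2 sets of lines did not overlap, with folds of 4.33 (MCA-970 over MCA-969, SE 0.28, adjusted p = 2.2e-07) to 8.74 (MCA-943 over MCA-948, SE 0.30, adjusted p = 4.6e-10). Lama2, the alpha chain of muscle and mesenchyme, was low in MCA-948 alone. It ran from 2.47 to 12.4 CPM (median 5.15) there, against 24.9 to 119 (median 65.3) in MCA-969 and 63.8 to 119 (median 92.3) in MCA-970. MCA-943 read 71.96, 79.0, 86.7 and 87.5 CPM and MCA-972 31.6, 32.9, 34.9 and 64.8 CPM. All MCA-948 tumors were below every other tumor, 7.07-fold under MCA-972 (SE 0.33, adjusted p = 2.4e-08) and 15.4-fold under MCA-970 (SE 0.32, adjusted p = 1.3e-11).

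Per length, Lama4 made up most of the laminin alpha transcripts in each line but MCA-969. Its share of the summed RPKM of the 5 alpha chains was 91.7% ± 1.79 (SD, n = 4) in MCA-943, 92.8% ± 1.70 (n = 4) in MCA-972, 85.8% ± 2.19 (n = 6) in MCA-970 and 75.8% ± 6.41 (n = 8) in MCA-948. In MCA-969 it was 46.6% ± 10.6 (n = 8), ranging from 29.4% to 63.2%. The remainder there was Lama2 (20.6%), Lama5 (13.997%), Lama1 (12.3%) and Lama3 (6.45%), whereas in MCA-948 Lama3 was second at 12.9%. Of 10 two-sided exact permutation tests of the Lama4 share between pairs of lines, 9 had an adjusted p of 0.011 or less and MCA-943 against MCA-972 had 0.40. For MCA-969 the adjusted p was 0.0034 against MCA-943 and MCA-972, 0.0016 against MCA-948 and 0.0017 against MCA-970. The summed alpha chain level itself was 66.7 ± 8.11 RPKM in MCA-943, 46.7 ± 4.50 in MCA-970, 46.5 ± 6.43 in MCA-972, 19.4 ± 4.54 in MCA-969 and 8.99 ± 4.17 in MCA-948. Transcripts of different chains were set beside each other by exon length only, and no protein was measured.

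**Figure D4:**
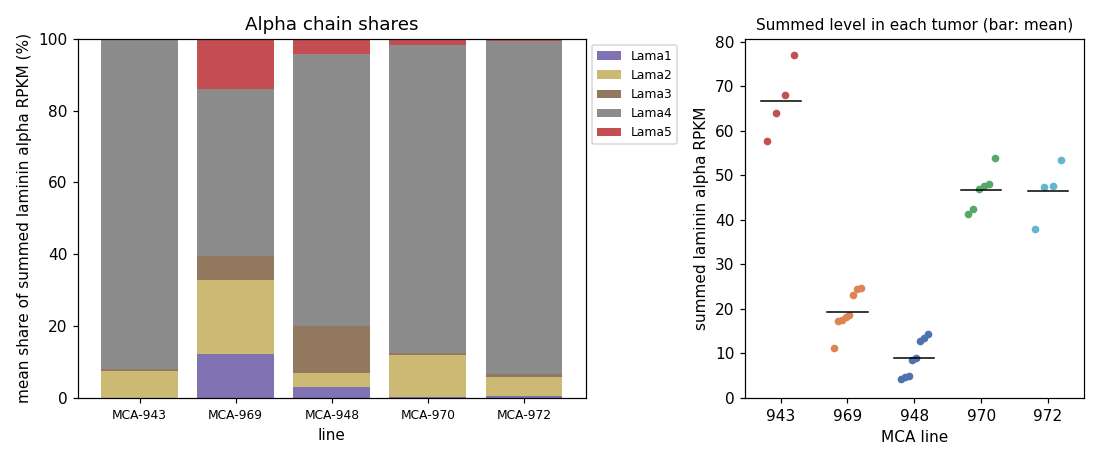
Left, mean share in percent of each laminin alpha chain in the summed laminin alpha RPKM, by line (stacked bars). Right, that summed RPKM in each tumor (points) with the line mean (bar). Lama4 fills 46.6% of the MCA-969 bar and 75.8% to 92.8% of the others, and MCA-948 has the lowest sum.

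The gamma chains showed the same division between shared and line-restricted members, whereas the beta chains tested were present in every line. Lamb1 held 83.4% to 93.2% of the summed beta chain RPKM in the line means. Lamb2, the beta chain of muscle and kidney basement membranes, was called once, 2.57-fold higher in MCA-943 than in MCA-948. Lamc3, a gamma chain of restricted distribution, ran from 2.54 to 7.91 CPM (median 6.20) in MCA-969. It ran from 0.425 to 0.982 CPM (median 0.501) in MCA-948 and from 0.116 to 1.05 (median 0.524) in MCA-970, and read 0.104, 0.196, 0.437 and 0.752 CPM in MCA-972. MCA-943 had 1 to 4 counts a tumor, at 0.0339, 0.0493, 0.0980 and 0.151 CPM. No other tumor reached the MCA-969 range, and the fold over MCA-948 was 9.43 (SE 0.36, adjusted p = 7.0e-09). Against MCA-943 the ratio of summed counts per summed library size was 68.9 (95% exact conditional interval 38.4 to 138). MCA-969 was therefore the line with the highest mean of Lama1, Lama3, Lama5 and Lamc3, though for Lama3 it was not told apart from MCA-948 (1.23-fold, adjusted p = 0.14). Of the 9 simple epithelial and mesothelial markers, 6 were tested, and Krt8 (385 CPM, against at most 3.51 in another line's mean), Krt18 (255 CPM, against at most 91.9), Epcam (4.84 CPM, against at most 1.44) and Msln (48.6 CPM, against 38.2 in MCA-943) had their highest mean in MCA-969. Krt19 did not (1.11 CPM, against 1.34 in MCA-948), and Cdh1, the E-cadherin gene, had its lowest mean there (0.318 CPM, against 4.58 in MCA-943). Keratinocyte keratins Krt5 and Krt14 had line means of at most 0.409 CPM. The part of these markers in the laminin levels was not tested.

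The integrins that leukocytes carry were read beside the leukocyte markers, since cells that escaped the CD45 beads could contribute to them. Itgb2, the beta subunit of leukocyte integrins, followed those markers. It read 4.48, 4.99, 11.8 and 14.1 CPM in MCA-943, where the 2 high values were those of a-1D and W-2G, and 3.26, 4.07, 4.72 and 5.66 CPM in MCA-972. It ran from 0.836 to 3.26 CPM (median 1.88) in MCA-969, from 2.02 to 5.06 (median 3.45) in MCA-948 and from 1.43 to 10.7 (median 2.32) in MCA-970. All MCA-943 tumors were above all MCA-969 tumors, and the tumors richest in leukocyte markers were the highest. Itgb2 was called in 5 comparisons, among them MCA-943 over MCA-969 (4.52-fold, SE 0.41, adjusted p = 4.7e-05). With the leukocyte score as a covariate, all 5 calls were lost, that of MCA-943 over MCA-969 at 0.52 on the log2 scale (adjusted p = 0.082). The alpha partners Itgal, Itgam, Itgax, Itgad and Itgae together summed to between 0.851 and 18.5 CPM, and Itgad reached at most 3 counts.

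Within lines of at least 6 tumors, 9 relations of Itgb2, Itga4 and Itgb7 with the leukocyte score were computed on the log2 scale. For Itgb2, Pearson's r was 0.84 in MCA-969 (n = 8, exact permutation p = 0.016, adjusted 0.055), 0.75 in MCA-948 (n = 8, exact p = 0.030, adjusted 0.055) and 0.94 in MCA-970 (n = 6, exact p = 0.021, adjusted 0.055). Spearman's rho was 0.98 (exact permutation p = 0.00040, adjusted 0.0036), 0.69 (p = 0.069, adjusted 0.245) and 0.71 (p = 0.14, adjusted 0.245). Without the 2 tumors farthest from the median score, r was 0.81, 0.88 and -0.17, so the relation in MCA-970 rested on W-1D and W-R. For Itgb7, r was -0.01 in MCA-969 (exact permutation p = 0.97, adjusted 0.97), 0.65 in MCA-948 (p = 0.081, adjusted 0.12) and 0.28 in MCA-970 (p = 0.63, adjusted 0.82).

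Itgb7, the mucosal homing beta subunit of lymphocytes, did not order the lines as the leukocyte markers did. It ran from 29.3 to 59.7 CPM (median 41.5) in MCA-948 and from 22.7 to 45.9 (median 35.5) in MCA-969, the line with the lowest leukocyte markers. MCA-943 read 11.2, 11.6, 12.6 and 14.03 CPM, MCA-972 1.64, 2.03, 2.84 and 3.14 CPM, and MCA-970 1.32 to 3.35 (median 2.62), including W-1D, whose summed leukocyte marker CPM was the highest of all tumors and whose Itgb7 was 2.87 CPM. The tumors fell into 3 levels without overlap: MCA-948 with MCA-969, then MCA-943, then MCA-970 with MCA-972. MCA-948 exceeded MCA-970 17.004-fold (SE 0.20, adjusted p = 1.8e-16) and MCA-943 exceeded MCA-970 4.95-fold (SE 0.21, adjusted p = 1.5e-10). MCA-969 and MCA-948 were not told apart (1.20-fold, adjusted p = 0.13). All 8 calls of Itgb7 remained with the leukocyte score as a covariate. Its mean was 15.5 RPKM in MCA-948 and 12.9 in MCA-969, the third most abundant beta subunit there after Itgb1 and Itgb5.

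Itga4, a partner of Itgb1 and Itgb7 and a receptor for VCAM-1 and fibronectin, was highest in MCA-969, at 5.66 to 12.03 CPM (median 8.01). It ran from 3.48 to 8.10 CPM (median 4.28) in MCA-970 and from 0.886 to 2.85 (median 1.31) in MCA-948, and read 3.59, 4.43, 5.54 and 6.65 CPM in MCA-972. In MCA-943 it read 1.67 and 2.27 CPM in a-R and a-1G and 5.18 and 5.96 CPM in the leukocyte-rich a-1D and W-2G. MCA-969 and MCA-948 did not overlap (5.50-fold, SE 0.27, adjusted p = 6.6e-09). With the leukocyte score as a covariate, 4 of its 5 calls remained and that of MCA-943 over MCA-948 was lost (0.74 on the log2 scale), as it was without the 4 tumors richest in leukocyte markers (0.32, adjusted p = 0.47). Pearson's r with the score was -0.13 in MCA-969 (n = 8, exact permutation p = 0.73, adjusted 0.82), 0.75 in MCA-948 (n = 8, p = 0.030, adjusted 0.055) and 0.82 in MCA-970 (n = 6, p = 0.029, adjusted 0.055), and r without the 2 farthest tumors was -0.36, 0.36 and -0.49. Per length it was low, at most 0.612 RPKM in a line mean. Cerkl overlaps Itga4 on the other strand, and the strand setting of the counting is not given in the sources used here.

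**Figure D5:**
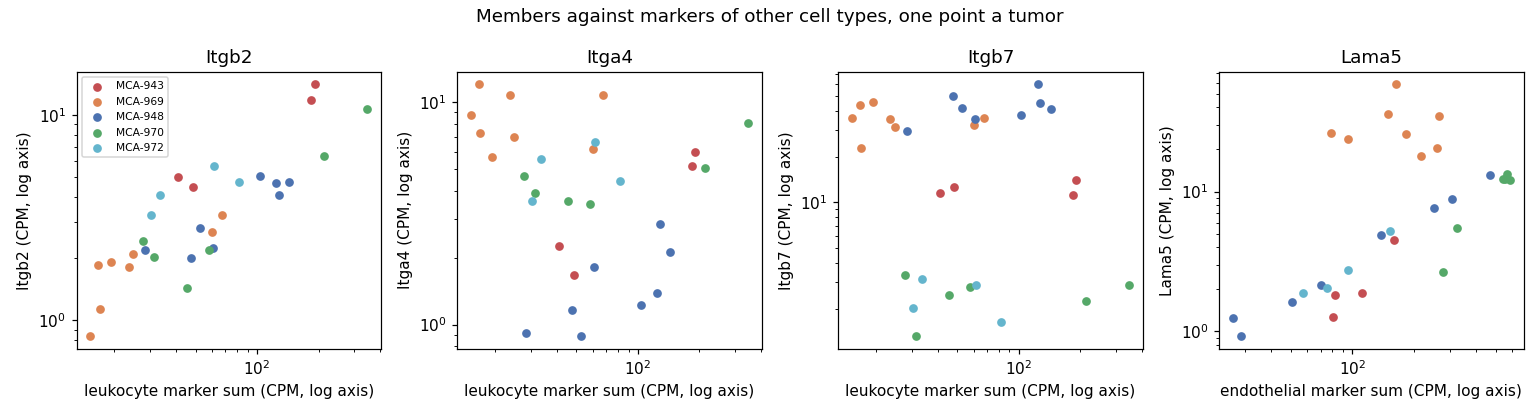
CPM of Itgb2, Itga4 and Itgb7 against the summed CPM of 18 leukocyte markers, and of Lama5 against the summed CPM of 11 endothelial markers (all axes log), 1 point a tumor, coloured by line. Itgb2 climbs with the leukocyte sum, Itgb7 forms 3 bands by line, and Lama5 climbs with the endothelial sum except in MCA-969, whose points lie above.

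Lama5, Lama4 and Itga1 were set beside the endothelial markers after their values were seen, so that the p-values of these relations are not independent of that choice. In MCA-948 the endothelial markers summed to 26.2 CPM in W-2G, 28.7 in W-1D, 50.8 in a-2G, 70.7 in W-2D, 139 in W-1G, 250.3 in a-1G, 307 in a-2D and 466 in a-R, and Lama5 read 1.25, 0.923, 1.62, 2.15, 4.92, 7.61, 8.80 and 13.2 CPM in the same tumors. The tumors with most endothelial RNA were thus those with most Lama5. Over 9 relations of Lama5, Lama4 and Itga1 with the log2 endothelial sum, Lama5 in MCA-948 gave r = 0.99 (n = 8, exact permutation p = 5.0e-05, adjusted 0.00045), rho = 0.98 (exact p = 0.00040, adjusted 0.0036) and r = 0.997 without the 2 farthest tumors. In MCA-970 r was 0.97 (n = 6, exact p = 0.017, adjusted 0.038), rho 0.66 (p = 0.18, adjusted 0.23) and r -0.07 without W-R and W-1D, on which it rested. In MCA-969, where Lama5 was highest, r was -0.05 (n = 8, exact p = 0.92, adjusted 0.92) and rho -0.24 (p = 0.58, adjusted 0.65), and r was -0.52 without the 2 farthest tumors. The endothelial sums of MCA-969, 78.9 to 264 CPM, were within those of MCA-948.

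For Lama4, r was 0.87 in MCA-948 (exact permutation p = 0.010, adjusted 0.031), 0.72 in MCA-969 (p = 0.030, adjusted 0.045) and 0.44 in MCA-970 (p = 0.30, adjusted 0.38), with rho of 0.81 (adjusted p = 0.039), 0.88 (adjusted p = 0.022) and 0.71 (adjusted p = 0.20) by exact permutation. For Itga1, r was 0.92 in MCA-948 (exact permutation p = 0.0014, adjusted 0.0061), 0.74 in MCA-969 (p = 0.023, adjusted 0.041) and 0.07 in MCA-970 (p = 0.91, adjusted 0.92), with rho of 0.86 (adjusted p = 0.024), 0.88 (adjusted p = 0.022) and 0.14 (adjusted p = 0.80). Without the 2 farthest tumors these r values were 0.82, 0.81 and 0.32 for Lama4 and 0.89, 0.74 and -0.03 for Itga1. With an endothelial score as a covariate, 136 of the 144 calls of members remained. Among those lost were Lama5 in MCA-970 over MCA-972, from 1.70 to 0.23 on the log2 scale (adjusted p = 0.59), and in MCA-970 over MCA-943, where MCA-943 against MCA-970 gave -0.47 (adjusted p = 0.245), while the 4 calls of MCA-969 over the other lines remained.

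The genes that work with integrins and laminins were described from lists chosen for their function. Of the 20 tested genes of the adhesion machinery that ties integrins to actin (talins, kindlins, vinculin and others), 10 were called in at least 1 comparison, a share of 50.0% against 59.0% of all genes, and the median gene was called in 0.5 of the 10. Tln1 and Vcl, the genes of talin and vinculin, were never called. Of 8 hemidesmosome and laminin-receptor partners 4 were called (50.0%), with Plec and Dst, the plakin linkers, at 0 calls. Of 9 tested basement membrane partners 8 were called: Col4a1 and Col4a2, the ubiquitous collagen IV chains, averaged 1317 and 1176 CPM in MCA-970 against 129 and 106 CPM in MCA-943, and each was called in 7 comparisons, whereas Hspg2, perlecan, was called in 2. Of 15 tested other integrin ligands 14 were called. Postn averaged 14728 CPM in MCA-972 and 11452 in MCA-943 against 746 in MCA-969. Icam1, the ligand of leukocyte integrins, named here after its values were seen, was the 1 gene of this list higher in both non-sensitive lines in all 6 comparisons (46.7 and 34.6 CPM against 5.15 to 16.2 CPM). That pattern was held by 0.652% of all genes tested, and Icam1 is not in the paper's list of genes upregulated in non-sensitive tumors. Madcam1, the ligand of Itgb7 with Itga4, reached at most 10 counts, and Vcam1 averaged 76.1 CPM in MCA-969 and 135 to 273 CPM in the other lines.

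The run of library numbers in the sample descriptions splits the tumors into 3 sets that lie mostly between lines, and the labels do not say what the runs are. Lines could be compared within a run in 5 of the 10 pairs. The members called within a run were 15 in MCA-943 against MCA-948 (29.6% of all genes called there), 17 in MCA-969 against MCA-972 (19.8%), 12 in MCA-969 against MCA-970 (17.4%) and 15 in MCA-948 against MCA-970 (23.6%). In MCA-969 against MCA-948, with 2 tumors a line, 2 were called (0.648% of all genes), among them Lama1, higher by 5.05 on the log2 scale (adjusted p = 0.048). The other 5 pairs share no run, but MCA-969 and MCA-948 each span 2 runs and link all 3. The links rest on MCA-969 W-1D and W-2D, labelled sensitive unlike the other MCA-969 tumors, and on MCA-948 a-2G and a-R. A run therefore cannot be told apart from the label in MCA-969, or from these few tumors in either line. With the run as a covariate in the fit over all tumors, 117 of the 144 calls of members held, 26 were lost and 1 changed its sign. Without the 2 MCA-969 tumors labelled sensitive, and with no run in the model, 141 of the 144 held and 3 were lost.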

How the data were processed

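RNA was sequenced from 30 tumors of 5 lines. Per the paper's methods and the submitters' notes, the authors aligned reads with STAR 2.5.3a to GRCm38 and counted them per gene with featureCounts, and the deposited values are raw counts; per the file headers, copies of a molecule (same UMI) had been removed. The version of featureCounts differs between the sources, and the strand setting is not given in the sources used here. All sample columns were used. Positions and symbols came from GENCODE release 21, which names 48058 of the 48440 genes.

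The line was taken from the titles and the sensitivity of a line from the paper; the labels give the opposite class for 2 MCA-969 tumors, which were kept in their line. The members and lists were chosen with earlier results of these data known.

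Counts were fitted with edgeR 4.0.16 (filterByExpr by line, TMM, robust quasi-likelihood fit, 16862 genes, biological coefficient of variation 0.221) over all 30 tumors, with 10 comparisons of lines. SE is the absolute log2 fold change divided by the square root of F. Log2 CPM used a prior count of 2. Alternatives used DESeq2 1.42.0, limma 3.58.1, other filters and covariates, and each tumor left out. The code was tested on simulated data. Relations were tested by exact permutation (Python 3.11). Described in full are the 12 members with the widest span of line means (at least 1 CPM in a line), Itgb1, Itgav, Fn1, Itgb2, Itgb7, Itga4, Itga1, Itga2, and any called alike in all 6 comparisons of non-sensitive with sensitive lines; the rest are given by ranges and counts. Depth, at least 27745104 counts a tumor, puts a count of 0 at no more than 3 counts, and intervals cover counting error only. One member of the gene group is not reported here.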

Additional observations from a re-analysis of the deposited data

Results flagged for a closer look

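In 146 sets of 1 member and 1 line, the highest or lowest tumor was compared with the gap to its nearest neighbour (Dixon's criterion), and 10 sets passed; chance gives about 1 in 20, or 7.3 sets. MCA-969 W-2D gave 5 of them, each as the lowest of 8 tumors: Itga1 at 20.1 CPM (others 28.8 to 34.7), Itga11 at 0.186 CPM (4.97 to 19.3), Itgav at 147 CPM (256 to 304), Lama4 at 39.8 CPM (94.7 to 187) and Lamc1 at 484 CPM (642 to 797). The same tumor had the lowest fibroblast marker sum of all 30 (10117 CPM) and the highest sum of simple epithelial and mesothelial markers (1258 CPM), and the labels class it as sensitive, unlike its line; the part of these in the low values was not tested. Another MCA-969 tumor, W-R, had Itga5 at 830 CPM, against 290 to 468 CPM in the others.

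MCA-972 a-R was the highest of 4 tumors for Itga6, at 14.7 CPM (others 10.9 to 11.1), and for Lama2, at 64.8 CPM (31.6 to 34.9). MCA-943 a-R was the lowest of 4 for Itga5, at 545 CPM (590 to 594). MCA-948 W-2G was the lowest of 8 for Itga7, at 16.7 CPM (24.9 to 34.5).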

How the results depend on the processing

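With no fold threshold, the members called were 23, 26, 21 and 21 in MCA-943 against MCA-969, MCA-948, MCA-970 and MCA-972, 22 and 27 in MCA-969 against MCA-948 and MCA-970, and 18 in MCA-970 against MCA-972, and 2 members were higher in both non-sensitive lines. With a log2 fold change of at least 2, they were 9, 7 and 7 in MCA-943 against MCA-969, MCA-948 and MCA-972, 8, 7 and 9 in MCA-969 against MCA-948, MCA-970 and MCA-972, 8 and 7 in MCA-948 against MCA-970 and MCA-972, and 3 in MCA-970 against MCA-972, and 0 were higher in both non-sensitive lines. That last count was also 0 with the run of library numbers as a covariate and, chosen after seeing the data, without the 4 tumors richest in leukocyte markers (Itgb4 in MCA-943 over MCA-970 then 0.96, adjusted p = 0.070). Within a run, 2 members were called in MCA-969 against MCA-948.

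Lama1 in MCA-948 against MCA-970 turned to -0.15 with the run as a covariate and -0.12 within a run. Itgb2 in MCA-969 against MCA-970 turned to 0.16 with the leukocyte score as a covariate and to 0.16 with the endothelial score added, the latter chosen after seeing the data. The cause of these changes was not tested. Of 144 calls of a member in a comparison, those that held were 143 with DESeq2, 139 with limma-voom, 143 with DESeq2's size factors, 117 with the run as a covariate, 138 with the leukocyte score and 136 with the endothelial score, the last chosen after seeing the data. The animal code in the titles as a replicate block kept 142 of the 144; nothing in the labels shows that equal codes pair the tumors of different lines.

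Leaving out each tumor in turn gave 13 to 15, 16 to 18, 11 to 12 and 10 to 12 calls for MCA-943 against MCA-969, MCA-948, MCA-970 and MCA-972, 14 to 15, 15 to 17 and 16 to 18 for MCA-969 against MCA-948, MCA-970 and MCA-972, 16 to 17 and 16 to 18 for MCA-948 against MCA-970 and MCA-972, and 9 to 10 for MCA-970 against MCA-972. Of 4320 such values 28 lost their call, among them Itgb2 in MCA-969 against MCA-970 without MCA-970 W-1D, Lama5 in MCA-970 against MCA-972 without MCA-972 a-1, and Itga4 in MCA-943 against MCA-948 without MCA-943 W-2G. Over these fits with a tumor left out, the median share of all genes called in the 10 comparisons lay between 25.0% and 26.4%. Depth limits Lama1 and Lamc3 in MCA-943, Itgb6 and Lamb3.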
